A study of Rattus norvegicus with 7 samples.

Results

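Integrins are the receptors through which a cell holds its matrix, and tetraspanins are small membrane proteins that gather integrins and other receptors into patches of the cell surface. The genes of both families were followed here in heart muscle cells given 1 of 7 microRNAs (miRNAs). All rows of the deposited table typed as protein-coding were taken whose symbol starts with Itga or Itgb, or with Tspan and a digit, together with Cd9, Cd37, Cd53, Cd63, Cd81, Cd82 and Cd151. The integrin-binding proteins Itgb1bp1, Itgb1bp2 and Itgb3bp were left out. This gave 51 genes of 17141 in the table, made up of 17 integrin alpha genes, 8 integrin beta genes and 26 tetraspanins. A mean of at least 1 RPKM (read counts divided by the length of the gene and by a size given to each library) over the 7 libraries was reached by 35 of the 51. These 35 were 10 alpha genes, 5 beta genes and 20 tetraspanins, and they are the members counted below. The symbol rule also took in Itgbl1, which encodes a secreted protein that resembles part of a beta subunit and is no receptor subunit. It left out Itgb5, a partner of the alpha-v subunit, because the table types that row as a processed transcript.

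The study asked which pathways are shared by miRNAs that make cardiomyocytes proliferate. Ventricular cells of wild type Wistar rats were taken at postnatal day 0, and the cells that did not attach to plastic, described in the labels as mostly cardiomyocytes, were plated. They were transfected 24 h later at 25 nM with hsa-miR-199a-3p, hsa-miR-590-3p, hsa-miR-373-3p, hsa-miR-302d-3p, hsa-miR-33b* or hsa-miR-1825, or with cel-miR-67. RNA was taken 72 h after transfection. Each miRNA had 1 library, so there is no replicate check and no p-value, and a difference below is a difference between 2 libraries. Nothing in the labels says how many hearts or dishes a library stands for, and untransfected cells were not analysed here. No label names a control, and cel-miR-67, a nematode miRNA, serves as one because the deposited ratios use it as denominator. All 6 comparisons share this 1 library, so agreement between them is not independent.

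An integrin is a pair of 1 alpha and 1 beta chain, and the pair sets the ligand: laminin, collagen, or proteins such as fibronectin and vitronectin that carry the amino acids Arg-Gly-Asp. In the cell its short tails reach talin, vinculin and kindlins, which tie it to actin at focal adhesions, and in the heart at the costameres that anchor the sarcomeres. Most heart integrins share the beta 1 chain, and alpha 7 beta 1 is the main laminin receptor of mature striated muscle. Tetraspanins bind no matrix themselves. They cross the membrane several times and carry partners with them: Cd151 binds the laminin-binding integrins, Cd9 and Cd81 bind immunoglobulin-family proteins, and a group that includes Tspan5, Tspan14, Tspan15, Tspan17 and Tspan33 binds the protease Adam10.

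A miRNA finds its messengers mostly through its seed, bases 2 to 8. The mature rat miRNA with the name of the first transfected molecule is shown because the lowest Cd151 level of the study was in its library. It lies on the plus strand at chr13:77116294-77116315 of GRCr8 (RefSeq), and capitals mark the seed. Matches to this seed in Cd151 or any other gene were not searched for.
rno-miR-199a-3p: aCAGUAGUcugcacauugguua

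The listed genes held 22616079 to 31963304 reads per library, as worked back from the RPKM values, and mitochondrial genes took 27.7% to 41.4% of them in the miRNA libraries and 41.0% in the cel-miR-67 library. The sizes behind the deposited values are not the sums of listed reads, which came to 85.5% (miR-199a-3p) to 108% (miR-590-3p) of them in the miRNA libraries and 109.5% in the cel-miR-67 library. Rescaling every library to its listed reads shifted the median change of all genes upwards, by 0.31 (miR-199a-3p), 0.22 (miR-302d-3p), 0.17 (miR-373-3p), 0.11 (miR-1825), 0.10 (miR-33b*) and 0.01 (miR-590-3p) on the log2 scale. With it 24 of the 210 changes of the members counted below, in 14 genes, turned from below to above 0, so a scaled value is read against this shift. Cardiomyocyte markers were high in every library: Actc1 was at 5584 to 7059 RPKM in the miRNA libraries and 7073 RPKM after cel-miR-67, and Tnnt2 at 1607 to 2440 RPKM and 2433 RPKM. The 6 cardiomyocyte markers in the table summed to 10062 to 12119 RPKM in the miRNA libraries against 12478 RPKM after cel-miR-67. Among them Tnni3 was at 138 to 469 RPKM against 351 RPKM, and Ryr2 at 41.3 to 72.7 RPKM against 88.0 RPKM. Markers of other cells were present. The 7 fibroblast markers summed to 326 to 433 RPKM in the miRNA libraries against 494 RPKM after cel-miR-67, and the 6 smooth muscle markers to 768 to 1172 RPKM against 757 RPKM. The smooth muscle markers did not move alike. Cnn1 was at 151 to 298 RPKM against 88.8 RPKM, while log2 changes of Myh11 (-1.06 to 0.20), Acta2 (-0.51 to 0.79), Tagln (-0.26 to 0.56), Pdgfrb and Rgs5 went in both directions. Their median change was -0.17 after miR-302d-3p, -0.05 after miR-373-3p and up to 0.40 (miR-199a-3p) in the others. The 6 endothelial markers in the table summed to 13.8 to 17.4 RPKM against 22.1 RPKM, the 5 epicardial markers to 13.4 to 20.8 RPKM against 26.7 RPKM, the 6 leukocyte markers to 8.10 to 14.0 RPKM against 15.5 RPKM, and 2 of 5 platelet markers to 5.42 to 8.92 RPKM against 8.47 RPKM. No marker in the table was at 0 in all 7 libraries, and the endothelial marker Cdh5 and the leukocyte marker Ptprc stayed at or below 0.99 RPKM. The part of these other cells in the results below was not tested. In bulk RNA, fewer cells of a type and less RNA per cell cannot be told apart.

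The 2 families were dominated by Itgb1, the beta 1 chain. Its level was 672 RPKM after miR-199a-3p, 640 RPKM after miR-590-3p, 405 RPKM after miR-373-3p, 355 RPKM after miR-302d-3p, 460 RPKM after miR-33b* and 651 RPKM after miR-1825, against 632 RPKM after cel-miR-67. Counting Itgb5 and leaving out Itgbl1, Itgb1 made up 90.1% to 93.8% of the beta chain RPKM in the miRNA libraries and 91.6% after cel-miR-67. Behind it came the tetraspanins Cd81 and Cd63, and Cd151, Tspan3, Tspan31, Tspan12, Cd9, Tspan2 and the alpha 5 chain gene Itga5 completed the 10 members with the highest mean. Itga5 codes for the alpha chain of the fibronectin receptor and stood highest among the alpha genes on average, at 35.8 to 47.4 RPKM in the miRNA libraries and 46.3 RPKM after cel-miR-67. Thus the alpha genes lay far below Itgb1, and none of them reached 50 RPKM in any library. The plot of RPKM by library sets out these ranges on a log axis.

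**Figure D1:**
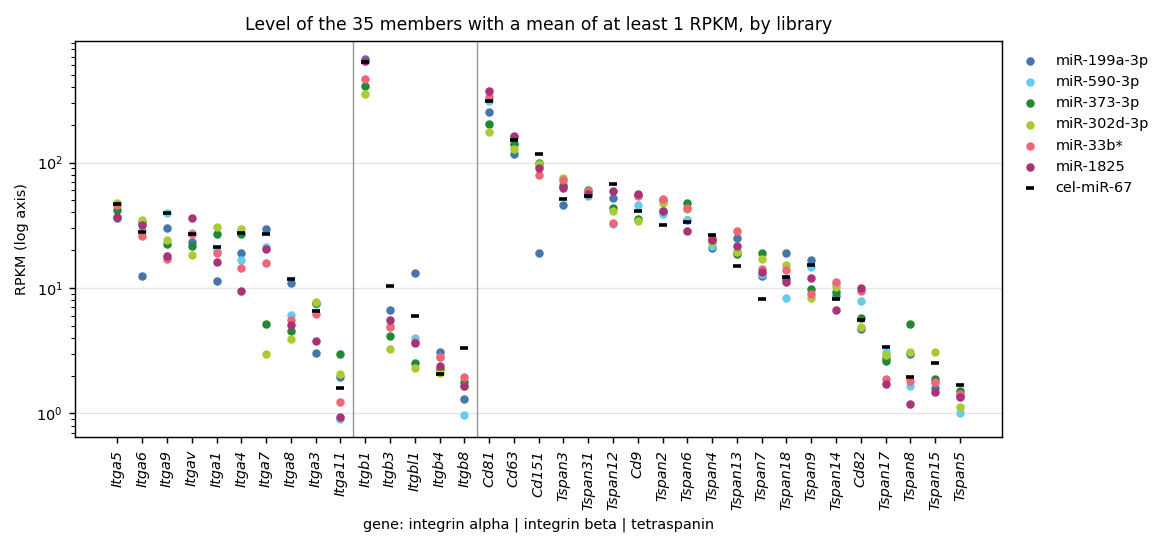
RPKM (log axis) of the 35 members, 1 point per library, ordered by mean within the alpha, beta and tetraspanin families. Itgb1 lies at 355 to 672 RPKM in all 7 libraries, above every other member.

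Each change is the log2 ratio of RPKM + 1 in a miRNA library to RPKM + 1 in the cel-miR-67 library, a scale that understates the change of low genes, and 12330 genes reached the same mean of 1 RPKM. A change of 2-fold or more in at least 1 of the 6 miRNA libraries was seen in 12 of the 35 members (34.3%), against 9.59% of all genes. Of these 12, 10 were lower in some library (5.44% of all genes were) and 3 were higher in some library (4.36% of all genes), with Itgbl1 in both counts. The alpha genes held 5 of the 12, the beta genes 3 and the tetraspanins 4. In the miR-199a-3p library 1 member was 2-fold higher and 2 were 2-fold lower, where 1.04% and 1.52% of all genes were. In the miR-590-3p library 0 were higher and 2 lower, against 1.51% and 0.762% of all genes. In the miR-373-3p library 2 were higher and 3 lower, against 1.15% and 1.87%. In the miR-302d-3p library 0 were higher and 4 lower, against 1.31% and 2.11%. In the miR-33b* library 0 were higher and 2 lower, against 1.3% and 1.24%. In the miR-1825 library 0 were higher and 3 lower, against 2% and 1.63%. In each of the 6 libraries the share of members past the limit downwards, 5.71% to 11.4%, was above that of all genes, on counts of 2 to 4. These shares are not independent: they use the same cel-miR-67 library, and a gene can count in several of them, as Itga8 did in 3. The members were also chosen with earlier results of these data known.

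No member was 1.5-fold higher in all 6 miRNA libraries, or 1.5-fold lower in all 6, where 0.584% and 0.211% of all genes were. Taking sign alone, 5 members (Itgb4, Tspan2, Tspan7, Tspan13 and Tspan31) were above cel-miR-67 in all 6, or 14.3% of the members against 13.9% of all genes. Below it in all 6 were 8 (Itga8, Itgb3, Itgb8, Cd151, Tspan4, Tspan5, Tspan12 and Tspan17), or 22.9% against 13.4%. After scaling to the listed reads, which moved all genes upwards, Itga8, Tspan4, Tspan5 and Tspan17 left the group below and Cd82 and Tspan3 joined the group above. The median change of the 35 members was -0.22 (miR-1825), -0.17 (miR-199a-3p), -0.15 (miR-302d-3p), -0.11 (miR-373-3p), -0.09 (miR-33b*) and -0.06 (miR-590-3p), and that of all genes lay between -0.00 and 0.02. The members' median was below that of all genes in all 6 libraries, with a difference of -0.23 to -0.06 as deposited and -0.22 to -0.06 when scaled to the listed reads. The scaling multiplies all genes of a library by 1 factor, so the 2 ranges are alike by construction and the second adds no support.

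**Figure D2:**
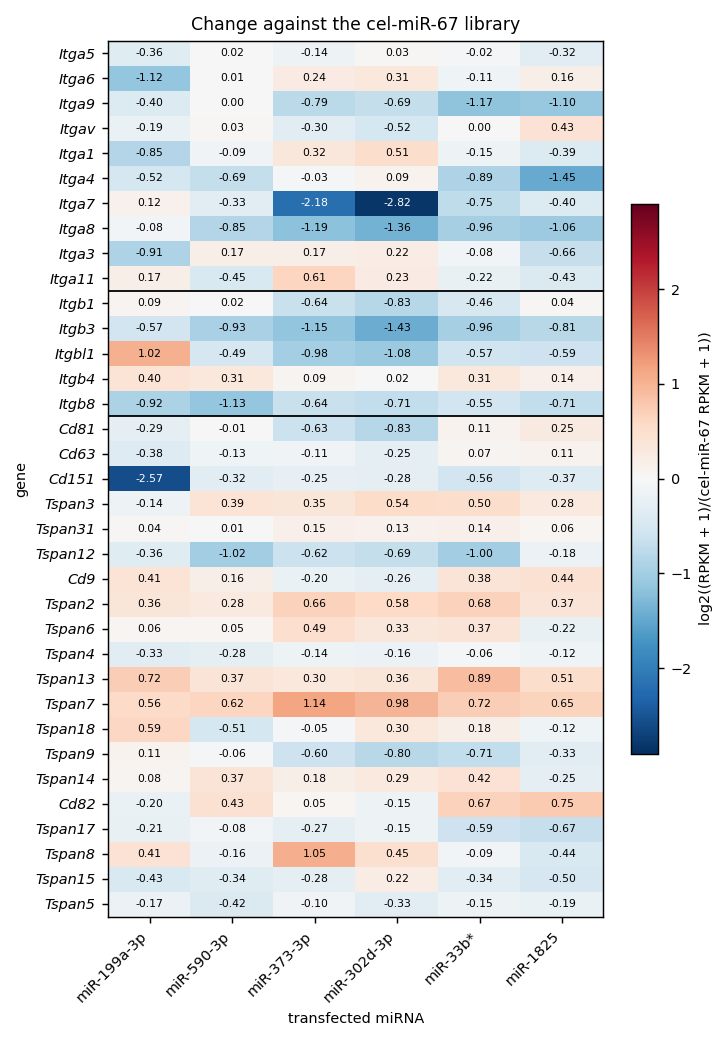
Heat map of the log2 change, (RPKM + 1) over (cel-miR-67 RPKM + 1), of the 35 members (rows) in the 6 miRNA libraries (columns), with the value in each cell. The lowest cells are Itga7 after miR-302d-3p (-2.82), Cd151 after miR-199a-3p (-2.57) and Itga7 after miR-373-3p (-2.18).

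Among the laminin-binding alpha genes, Itga7 was lower with miR-302d-3p and with miR-373-3p, and Itga6 was lower after miR-199a-3p. Itga7 was at 29.7 RPKM after miR-199a-3p, 21.4 RPKM after miR-590-3p, 5.21 RPKM after miR-373-3p, 3.00 RPKM after miR-302d-3p, 15.8 RPKM after miR-33b* and 20.3 RPKM after miR-1825, against 27.2 RPKM after cel-miR-67. The miR-302d-3p library held 621 reads of it and the cel-miR-67 library 3678, a ratio of read rates of 0.110 (95% interval 0.101 to 0.120, exact, for counting error only). The ratio after miR-373-3p was 0.192 (0.178 to 0.206). The 2 lowest libraries were thus those of miR-302d-3p and miR-373-3p, which are members of 1 seed family. Itga6, whose chain pairs with beta 1 or beta 4, was at 12.4 RPKM after miR-199a-3p, 28.3 RPKM after miR-590-3p, 33.4 RPKM after miR-373-3p, 35.1 RPKM after miR-302d-3p, 25.9 RPKM after miR-33b* and 31.5 RPKM after miR-1825, against 28.1 RPKM after cel-miR-67. The miR-199a-3p library stood apart at a ratio of 0.441 (0.418 to 0.466), and no other library was below 25.9 RPKM. Scaled to the listed reads, that change of -1.12 came to -0.79, inside 2-fold, with a shift of 0.31 in the median of all genes. Itga3, another laminin-binding chain, ran from 3.04 RPKM (miR-199a-3p) to 7.79 RPKM (miR-302d-3p), against 6.56 RPKM after cel-miR-67, and its changes of -0.91 to 0.22 stayed within 2-fold. In sum the laminin-binding chains took 22.4% to 30.7% of the alpha RPKM in the miRNA libraries and 25.7% after cel-miR-67, with different genes making up the sum.

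The summed RPKM of the collagen-binding chains was highest in the libraries where Itga7 was lowest, and Itga1 made up most of it. Itga2 did not follow this, at 0.710 RPKM after miR-302d-3p and 1.04 RPKM after miR-373-3p against 0.789 RPKM after cel-miR-67. Reads of Itga1 cannot be told apart from those of the overlapping gene Pelo, as described further below. Itga1, a receptor chain for collagen IV and other collagens, was at 11.4 RPKM after miR-199a-3p, 19.9 RPKM after miR-590-3p, 26.9 RPKM after miR-373-3p, 30.7 RPKM after miR-302d-3p, 19.0 RPKM after miR-33b* and 16.0 RPKM after miR-1825, against 21.3 RPKM after cel-miR-67. None of these changes reached 2-fold, and they ran from -0.85 (miR-199a-3p) to 0.51 (miR-302d-3p). Itga11, which binds fibrillar collagen, was at 0.904 to 2.98 RPKM in the miRNA libraries and 1.60 RPKM after cel-miR-67. Together with Itga2 and Itga10 they made up 16.3% of the alpha RPKM after miR-302d-3p and 15.7% after miR-373-3p, 7.93% to 11.7% after the other 4 miRNAs and 9.86% after cel-miR-67.

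The chains of the Arg-Gly-Asp group were steadier, with Itga8 as the exception. Itgav, the alpha-v chain, was at 18.5 RPKM (miR-302d-3p) to 36.5 RPKM (miR-1825) against 26.9 RPKM after cel-miR-67, and Itga5 changed by -0.36 to 0.03. Itga8, a receptor chain for nephronectin, was at 11.0 RPKM after miR-199a-3p, 6.04 RPKM after miR-590-3p, 4.56 RPKM after miR-373-3p, 3.95 RPKM after miR-302d-3p, 5.55 RPKM after miR-33b* and 5.08 RPKM after miR-1825, against 11.7 RPKM after cel-miR-67. The 5 lowest libraries lay between 3.95 and 6.04 RPKM, and the miR-199a-3p library was near cel-miR-67. It went above cel-miR-67 after scaling to the listed reads (0.25 against -0.08 as deposited), which shifted the median of all genes by 0.31. The ratios were 0.389 (0.357 to 0.424) after miR-373-3p, 0.337 (0.309 to 0.368) after miR-302d-3p and 0.434 (0.398 to 0.473) after miR-1825, the last inside 2-fold when scaled (-0.95).

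Itga4 and Itga9, sister chains that bind Vcam1 and, for alpha 9, tenascin C, were lowest after miR-1825 or miR-33b*. Itga4 was at 19.0 RPKM after miR-199a-3p, 16.7 RPKM after miR-590-3p, 27.1 RPKM after miR-373-3p, 29.5 RPKM after miR-302d-3p, 14.5 RPKM after miR-33b* and 9.47 RPKM after miR-1825, against 27.6 RPKM after cel-miR-67. Its ratio after miR-1825 was 0.343 (0.316 to 0.372), while miR-302d-3p and miR-373-3p left it within 0.09 of cel-miR-67 on the log2 scale as deposited. Itga9 was at 30.0 RPKM after miR-199a-3p, 39.9 RPKM after miR-590-3p, 22.6 RPKM after miR-373-3p, 24.3 RPKM after miR-302d-3p, 17.2 RPKM after miR-33b* and 18.1 RPKM after miR-1825, against 39.8 RPKM after cel-miR-67. The ratio was 0.431 (0.403 to 0.462) after miR-33b* and 0.454 (0.426 to 0.483) after miR-1825, and the change after miR-1825 came to -0.97 when scaled to the listed reads. The 2 chains together took 17.5% of the alpha RPKM after miR-33b* and 15.2% after miR-1825, 25.2% to 27.1% after the other 4 miRNAs and 28.1% after cel-miR-67.

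**Figure D3:**
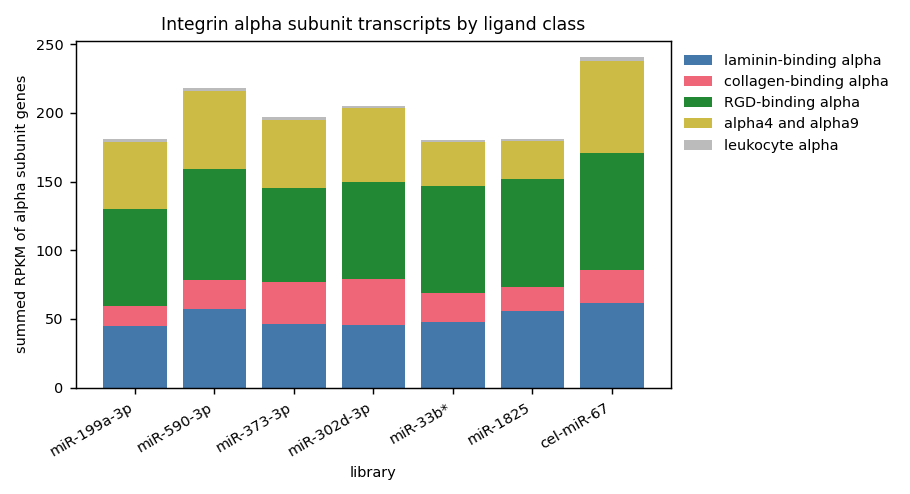
Summed RPKM of the 17 alpha genes in each library, stacked by the class of ligand that the chain binds. The sum is 180.5 to 218 RPKM in the 6 miRNA libraries and 240.4 RPKM after cel-miR-67, and the Itga4 and Itga9 block is 31.6 RPKM after miR-33b* and 27.5 RPKM after miR-1825, against 67.4 RPKM after cel-miR-67.

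The summed alpha RPKM was lower in each miRNA library than after cel-miR-67 as deposited, as the stacked plot of ligand classes shows. When scaled to the listed reads the sum after miR-302d-3p was 244 RPKM against 240.4 RPKM after cel-miR-67, with a shift of 0.22 in the median of all genes. The other 5 scaled sums were at 196 to 231 RPKM.

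Of the beta genes, Itgb1 was lower with miR-302d-3p (-0.83), with miR-373-3p (-0.64) and with miR-33b* (-0.46), but within 0.09 of cel-miR-67 after the other 3 miRNAs as deposited. Scaled to the listed reads, the levels in these 3 libraries were 422, 463 and 499.9 RPKM against 632 RPKM, still lower. The change after miR-199a-3p became 0.45, with a shift of 0.31 in the median of all genes. The summed RPKM of the beta chains, here with Itgb5, was 394 RPKM after miR-302d-3p, 447 RPKM after miR-373-3p and 508 RPKM after miR-33b*, against 689.8 RPKM after cel-miR-67.

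Itgb3, the partner of alpha-v in the vitronectin receptor and of Itga2b on platelets, was a beta gene that was lower in every miRNA library under each scaling. It was at 6.72 RPKM after miR-199a-3p, 5.00 RPKM after miR-590-3p, 4.13 RPKM after miR-373-3p, 3.24 RPKM after miR-302d-3p, 4.87 RPKM after miR-33b* and 5.52 RPKM after miR-1825, against 10.4 RPKM after cel-miR-67. Its miR-302d-3p and miR-373-3p levels were past 2-fold, with a ratio of 0.310 (0.272 to 0.354) after miR-302d-3p and 0.396 (0.349 to 0.450) after miR-373-3p, where the scaled change was -0.997 and just short of the limit. The platelet gene Itga2b was at 0.0979 to 0.150 RPKM in the miRNA libraries and 0.145 RPKM after cel-miR-67. Pf4, the other platelet marker in the table, was at 5.32 to 8.82 RPKM and 8.32 RPKM after cel-miR-67. Its changes were -0.56 to 0.08, above 0 only after miR-373-3p. The part of platelets in the Itgb3 levels was not tested. Itgb8, whose chain pairs with alpha-v to bind latent TGF-beta, was likewise lower in all 6 under each scaling: it was at 1.29 RPKM after miR-199a-3p, 0.980 RPKM after miR-590-3p, 1.78 RPKM after miR-373-3p, 1.65 RPKM after miR-302d-3p, 1.96 RPKM after miR-33b* and 1.64 RPKM after miR-1825, against 3.33 RPKM after cel-miR-67. In reads, 93 after miR-590-3p stood against 293 after cel-miR-67, a ratio of 0.295 (0.231 to 0.373). Itgb4, the hemidesmosome partner of alpha 6 in epithelia, was low throughout, at 2.12 to 3.07 RPKM in the miRNA libraries and 2.08 RPKM after cel-miR-67. Itgbl1 was the member with 2-fold changes in both directions. It was at 13.2 RPKM after miR-199a-3p, 3.97 RPKM after miR-590-3p, 2.54 RPKM after miR-373-3p, 2.30 RPKM after miR-302d-3p, 3.72 RPKM after miR-33b* and 3.64 RPKM after miR-1825, against 5.99 RPKM after cel-miR-67. The ratios were 2.20 (1.93 to 2.52) after miR-199a-3p and 0.384 (0.318 to 0.463) after miR-302d-3p, and all libraries other than that of miR-199a-3p were below cel-miR-67. The change after miR-302d-3p was -1.08 as deposited and -0.90 when scaled. Itgb5, outside the rule, was at 30.7 RPKM (miR-302d-3p) to 41.3 RPKM (miR-1825) against 40.7 RPKM after cel-miR-67, second to Itgb1 among beta chains in every library.

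The tetraspanin with the lowest change was Cd151, which holds laminin-binding integrins in the membrane. It was at 19.0 RPKM after miR-199a-3p, 94.3 RPKM after miR-590-3p, 99.3 RPKM after miR-373-3p, 97.1 RPKM after miR-302d-3p, 79.9 RPKM after miR-33b* and 91.1 RPKM after miR-1825, against 118 RPKM after cel-miR-67. The miR-199a-3p library stood alone, with 1477 reads against 7681 and a ratio of 0.161 (0.152 to 0.170), and the other 5 changed by -0.56 to -0.25. The genes of its partners Itga6 and Itga3 had their lowest levels in this same library, as given above, whereas Itga7 there was at 29.7 RPKM and Itgb1 at 672 RPKM.

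Tspan12, known for aiding Norrin and Frizzled 4 signalling in retinal vessels, was lower in all 6 libraries under each scaling. It was at 52.2 RPKM after miR-199a-3p, 32.6 RPKM after miR-590-3p, 43.2 RPKM after miR-373-3p, 41.2 RPKM after miR-302d-3p, 32.98 RPKM after miR-33b* and 59.1 RPKM after miR-1825, against 67.04 RPKM after cel-miR-67. Only the miR-590-3p library, at a ratio of 0.487 (0.461 to 0.514), and the miR-33b* library, at 0.492 (0.465 to 0.520), passed 2-fold, both close to the limit, and the change after miR-33b* was -0.88 when scaled. The endothelial marker Cdh5 was at 0.26 to 0.50 RPKM in the miRNA libraries and 0.40 RPKM after cel-miR-67. The endothelial markers Eng (changes of -0.79 to -0.31) and Plvap (-0.94 to -0.53) were below cel-miR-67 in all 6 libraries. Changes of Tek (-0.13 to 0.44), Kdr (-0.55 to 0.20) and Tie1 (-0.11 to 0.35) went in both directions. The part of endothelial cells in the Tspan12 levels was not tested.

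Tspan7, a tetraspanin known best from neurons, was higher in all 6 libraries under each scaling. It was at 12.5 RPKM after miR-199a-3p, 13.0 RPKM after miR-590-3p, 19.2 RPKM after miR-373-3p, 16.9 RPKM after miR-302d-3p, 14.1 RPKM after miR-33b* and 13.4 RPKM after miR-1825, against 8.12 RPKM after cel-miR-67. The ratio after miR-373-3p was 2.36 (2.10 to 2.66). The change after miR-302d-3p was 0.98, and the changes after the other 4 miRNAs lay between 0.56 and 0.72. When scaled, the change after miR-302d-3p was 1.21, with a shift of 0.22 in the median of all genes. Tspan13, at 18.7 to 28.5 RPKM in the miRNA libraries and 14.95 RPKM after cel-miR-67, was also above it in all 6 under each scaling. Its changes were 0.30 to 0.89 as deposited. They passed 2-fold with miR-199a-3p (1.06) and with miR-33b* (1.00) only when scaled. That scaling shifted the median of all genes by 0.31 and 0.10 in these libraries. Tspan2, known from oligodendrocytes, was at 38.6 to 51.2 RPKM and 31.6 RPKM after cel-miR-67, with changes of 0.28 to 0.68. Tspan8, a tetraspanin of epithelia, was low and rested on few reads: it was at 2.95 RPKM after miR-199a-3p, 1.65 RPKM after miR-590-3p, 5.15 RPKM after miR-373-3p, 3.07 RPKM after miR-302d-3p, 1.797 RPKM after miR-33b* and 1.19 RPKM after miR-1825, against 1.97 RPKM after cel-miR-67. After miR-373-3p 184 reads stood against 52, a ratio of 2.62 (1.91 to 3.63).

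**Figure D4:**
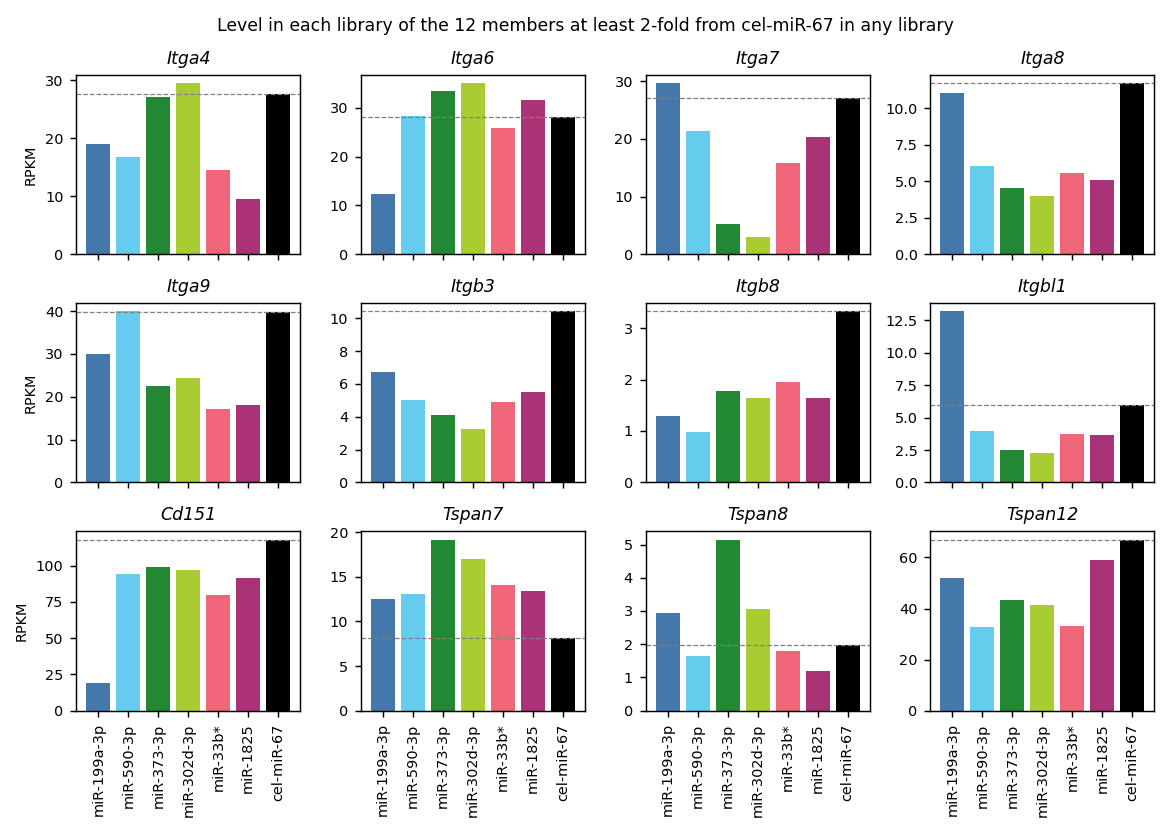
RPKM in the 7 libraries of the 12 members past 2-fold in at least 1 miRNA library, 1 panel per gene with its own axis from 0, and a dashed line at the cel-miR-67 level. Cd151 at 19.0 RPKM after miR-199a-3p and Itga7 at 3.00 and 5.21 RPKM with miR-302d-3p and with miR-373-3p are the lowest bars relative to that line.

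The most abundant tetraspanins moved less. Cd81, a partner of several integrins and immunoglobulin-family proteins, was at 254 RPKM after miR-199a-3p, 309.6 RPKM after miR-590-3p, 201 RPKM after miR-373-3p, 175 RPKM after miR-302d-3p, 335 RPKM after miR-33b* and 371 RPKM after miR-1825, against 311 RPKM after cel-miR-67. Its 2 lowest libraries were those of miR-302d-3p and miR-373-3p, where it took 21.6% and 23.5% of the tetraspanin RPKM, against 32.0% to 35.8% after the other 4 miRNAs and 32.4% after cel-miR-67. Cd63, of late endosomes and exosomes, was at 117 to 164 RPKM and 152 RPKM after cel-miR-67, and Tspan31 at 54.3 to 60.2 RPKM and 54.0 RPKM, the narrowest range of the members with the highest means. RefSeq places Tspan31 over part of Cdk4, at 77.7 to 123 RPKM over the 7 libraries, and Cd63 over part of Rdh5, and the strand setting of the counting is not given in the sources used here, so reads of such neighbours cannot be told apart. The same holds for Itga1 and Pelo, which was at 22.1 to 41.7 RPKM. Rdh5, Cerkl beside Itga4 and Mettl7b beside Itga7 were low, at up to 0.347, 0.473 and 1.12 RPKM. Cd9 was at 34.1 RPKM (miR-302d-3p) to 55.9 RPKM (miR-1825) against 41.0 RPKM after cel-miR-67, and Tspan3 at 46.3 RPKM (miR-199a-3p) to 75.1 RPKM (miR-302d-3p) against 51.2 RPKM. Cd82, a tetraspanin that restrains cell migration in tumour cells, was at 4.68 to 9.98 RPKM and 5.53 RPKM after cel-miR-67, highest after miR-33b* and miR-1825. Tspan18 was at 18.9 RPKM after miR-199a-3p, 8.29 to 15.3 RPKM after the other 5 miRNAs and 12.2 RPKM after cel-miR-67. The remaining tetraspanins of the 20 (Tspan4, Tspan5, Tspan6, Tspan9, Tspan14, Tspan15 and Tspan17) had changes of -0.80 to 0.49, none past 2-fold. Of these, the Adam10 partners Tspan5, Tspan14, Tspan15 and Tspan17 were at 1.01 to 11.2 RPKM in the miRNA libraries.

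The medians of the 3 families differed by library. The alpha median was -0.41 after miR-1825, -0.38 after miR-199a-3p, -0.19 after miR-33b*, -0.08 with miR-373-3p, -0.05 with miR-590-3p and 0.06 with miR-302d-3p. The median of the 5 beta genes was -0.83 after miR-302d-3p, -0.64 after miR-373-3p, -0.59 after miR-1825, -0.55 after miR-33b*, -0.49 after miR-590-3p and 0.09 after miR-199a-3p. These 5 count Itgbl1, which is no receptor subunit, and leave out Itgb5. The medians after miR-1825 and miR-590-3p were the changes of Itgbl1 itself. Itgb5 changed by -0.39, -0.32, 0.02, -0.13, -0.31 and -0.27 in the same order. The medians thus describe the rule's genes and not the beta chains as a whole. Tetraspanin medians stayed between -0.12 and 0.12. Summed over the 26 genes, tetraspanin RPKM was 792 to 1037 in the miRNA libraries and 962 after cel-miR-67.

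The miRNAs miR-302d-3p and miR-373-3p share a seed, and the difference between their libraries was small for most members. Taken as miR-302d-3p over miR-373-3p, it ran from -0.64 to 0.50 on the log2 scale with a median of -0.07 (0.00 over all genes), and 0 members passed 2-fold, as did 0.422% of all genes. Past 1.5-fold were Itga7 (-0.64) and Tspan8 (-0.60), 2 members of 35 against 2.4% of all genes. This spread is between 2 different miRNAs and is no replicate error. In both libraries Itga7, Itga8 and Itgb3 were past 2-fold lower, and Itgb1 and Cd81 had their 2 lowest levels of the 7 libraries.

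The 16 genes under a mean of 1 RPKM were Itgae, Itga2, Itgam, Itgax, Itgal, Itga2b, Itga10, Itgb2, Itgb6, Itgb7, Cd53, Tspan11, Tspan1, Cd37, Tspan33 and Tspan32, at 0.00 to 1.15 RPKM in single libraries. Among them are the chains found on leukocytes (Itgae, Itgal, Itgam, Itgax, Itgb2 and Itgb7) and the tetraspanins Cd37 and Cd53 of blood cells. A 2 kb gene with 3 reads would be at 0.0432 to 0.0668 RPKM, so several of these levels lie near the depth limit.

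The genes around these receptors were taken from lists written from general knowledge: 31 focal adhesion genes, 25 integrin ligands and 11 tetraspanin partners had a mean of at least 1 RPKM. Of these 67, the numbers past 2-fold were 0 higher and 4 lower after miR-302d-3p, 1 and 2 after miR-373-3p, 0 and 2 with miR-1825, 0 and 2 with miR-33b*, 0 and 1 with miR-590-3p and 0 and 0 after miR-199a-3p. The lower ones were 5.97% of the 67 after miR-302d-3p (2.11% of all genes), and 2.99% after miR-373-3p (1.87%), after miR-33b* (1.24%) and after miR-1825 (1.63%). They were 1.49% after miR-590-3p (0.762%) and 0% after miR-199a-3p (1.52%). The higher ones were 1.49% after miR-373-3p (1.15% of all genes) and 0% after the other 5 miRNAs (1.04% to 2%). These shares rest on counts of 0 to 4. Postn, which codes for periostin, a matrix ligand of alpha-v integrins, was the list gene past the limit in at least 3 libraries. It was at 56.8 RPKM after miR-199a-3p, 41.8 RPKM after miR-590-3p, 46.3 RPKM after miR-373-3p, 45.1 RPKM after miR-302d-3p, 51.6 RPKM after miR-33b* and 38.3 RPKM after miR-1825, against 107 RPKM after cel-miR-67. It is also among the 7 fibroblast markers, and the sum of the other 6 was 281 to 376 RPKM in the miRNA libraries and 387 RPKM after cel-miR-67. These markers did not move alike: 4 of 7 were above cel-miR-67 after miR-199a-3p and 1 or 2 of 7 after the other miRNAs. Lum was above it in all 6, while Tcf21 (-1.41 to -0.58) and Col1a2 (-0.45 to -0.07) were, like Postn, below it in all 6. Others past the limit, picked out after their values were seen, were mostly lower in 1 library. Tns1, which codes for tensin, a link from beta chain tails to actin, was the focal adhesion gene among them, with changes of -1.27 (miR-302d-3p) and -1.13 (miR-373-3p). Of the ligands, Tgfbi (-1.11) was lower after miR-302d-3p, Thbs1 (-1.16) was lower after miR-33b*, and Spp1, the gene of osteopontin, was higher after miR-373-3p (1.05). The ligand median was -0.52 (miR-33b*), -0.35 (miR-1825), -0.32 (miR-302d-3p), -0.31 (miR-373-3p), -0.27 (miR-590-3p) and -0.07 (miR-199a-3p). The focal adhesion medians were -0.25 to 0.04, lowest after miR-33b*, and the partner medians -0.17 to 0.12. Adam10, the protease carried by several tetraspanins, was at 13.3 RPKM after miR-1825, 18.7 to 26.8 RPKM after the other 5 miRNAs and 32.1 RPKM after cel-miR-67, a change of -1.21 after miR-1825.

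Promoters of 29 of the 35 members were in the RefSeq table for GRCr8, each with 250 bases before and 50 after the start. The GC box GGGCGG was in 19 of the 29 (65.5%), the E-box CAGCTG in 9 (31.0%) and the TEAD element CATTCC in 6 (20.7%), counting both strands. The shares among 8055 tested protein-coding genes were 65.2%, 15.5% and 11.2%, and among all 27457 promoters 34.9%, 15.1% and 13.9%. The CArG box, searched by name, was in 0 of 29 against 1.33% of the tested genes. A match is a description of letters, and no binding was measured. The promoters of 3 members are shown as the ones with the lowest change in the miR-199a-3p library (Cd151), lower levels in the other 5 (Itga8) and higher levels in all 6 (Tspan7), and capitals mark matches to the GC box (CCGCCC where it lies on the other strand) or, once in Tspan7, to the TEAD element. They lie at chr1:205994050-205994349 (plus strand), chr17:80410584-80410883 (minus strand) and chrX:14978578-14978877 (minus strand), each written 5′ to 3′ along its gene.
Cd151: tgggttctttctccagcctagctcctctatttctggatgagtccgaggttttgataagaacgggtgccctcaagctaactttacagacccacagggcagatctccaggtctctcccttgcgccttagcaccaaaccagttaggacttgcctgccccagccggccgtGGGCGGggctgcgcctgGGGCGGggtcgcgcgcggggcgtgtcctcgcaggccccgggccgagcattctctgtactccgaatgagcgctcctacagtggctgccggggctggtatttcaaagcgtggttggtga
Itga8: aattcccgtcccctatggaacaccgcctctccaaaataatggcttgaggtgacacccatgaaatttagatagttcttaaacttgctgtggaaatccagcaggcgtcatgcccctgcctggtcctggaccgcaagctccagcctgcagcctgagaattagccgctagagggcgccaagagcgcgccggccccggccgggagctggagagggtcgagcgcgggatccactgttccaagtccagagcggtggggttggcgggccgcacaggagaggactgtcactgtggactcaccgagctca
Tspan7: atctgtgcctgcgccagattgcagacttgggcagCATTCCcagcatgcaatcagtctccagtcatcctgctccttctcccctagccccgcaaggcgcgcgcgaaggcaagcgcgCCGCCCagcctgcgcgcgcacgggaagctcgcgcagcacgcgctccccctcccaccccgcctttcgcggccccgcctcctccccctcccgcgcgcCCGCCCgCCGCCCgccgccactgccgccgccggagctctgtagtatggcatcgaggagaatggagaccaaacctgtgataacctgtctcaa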

How the data were processed

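The 7 libraries, 1 per miRNA, were made with an mRNA library protocol and went through Illumina sequencing (per the labels' protocols and the design text). Per the file headers, the authors deposited RPKM of 17141 genes together with ratios over the cel-miR-67 column. The submitters' processing notes name STAR 2.7, edgeR and Rnor_6.0 without saying what each was used for. Strand setting, annotation and filters were not given in the sources used here. All 7 single-sample files equalled the series table, which held 0 columns of other samples, and 100292 deposited ratios equalled the RPKM quotient within 1e-06, so the ratios were not used further.

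Whole reads, gene lengths (median 2230 bases) and library sizes were worked back from the RPKM and gave whole reads for 100% of genes within 0.05 reads. They served for exact (Clopper-Pearson) 95% intervals of rate ratios, which cover counting error only, carry no pseudocount and compare libraries, not conditions. Reads are not independent molecules, and 3 reads in a 2 kb gene stand for 0.0432 to 0.0668 RPKM. The recovery was tested on simulated data.

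Changes were log2((RPKM + 1)/(cel-miR-67 RPKM + 1)) over the 12330 genes averaging 1 RPKM or more, with limits of 2-fold per library and 1.5-fold in all 6. With 1 library per group no test across genes was made; counts are set beside the share of all genes. The members and lists were chosen with earlier results of these data known. Members named were those past 2-fold in any library, past 1.5-fold in all 6, among the 10 highest means, or among the 3 highest or lowest changes in any library; list genes were named if past 2-fold in at least 3 libraries, and Tns1, Tgfbi, Thbs1, Spp1, Adam10, Itga1, Itga3, Itga11, Itgav, Itgb4 and Itgb5 were added after their values were seen. The values of 1 list gene are not reported here. The ligand gene Vtn and the markers Ttn, 1 endothelial and 3 platelet genes were not matched by symbol. Proteins, 3' UTR matches and the other transfected miRNAs' sequences were not used here. Python 3.11.15, numpy 2.4.6, pandas 2.3.3, scipy 1.17.1 and matplotlib 3.10.9 were used.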

Additional observations from a re-analysis of the deposited data

How the results depend on the processing

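No paired analysis was possible because each group has 1 library, and for the same reason no replicate could be left out. Members past 2-fold numbered 3 (miR-1825), 2 (miR-33b*), 4 (miR-302d-3p), 5 (miR-373-3p), 2 (miR-590-3p) and 3 (miR-199a-3p). In the same order of miRNAs they were 10, 12, 11, 14, 6 and 8 at a limit of 1.5-fold, 1, 1, 1, 1, 0 and 1 with a pseudocount of 5 RPKM, and 1, 0, 1, 2, 0 and 5 when set against the mean of the other 5 libraries. With a pseudocount of 0.1 RPKM they were 5 after miR-199a-3p and 4 after miR-33b*, scaled to the listed reads 1 after miR-1825, and centred on the median of all genes 1 after miR-33b*. Focal adhesion, ligand and partner genes past 2-fold, 2, 2, 4, 3, 1 and 0 as reported in that order, came against the other 5 libraries to 0 (miR-1825), 0 (miR-33b*), 0 (miR-590-3p), 1 (miR-302d-3p) and 0 (miR-373-3p). They were 1 for miR-373-3p and 1 for miR-33b* when scaled, and 1 for miR-33b* with a pseudocount of 5 RPKM. At 1.5-fold in all 6, 1 member (Tspan7) was higher with a pseudocount of 0.1 RPKM, 1 (again Tspan7) was higher when scaled, and 2 (Itgb3 and Itgb8) were lower with a pseudocount of 0.1 RPKM. The median change of the members was 0.15 (miR-199a-3p), 0.077 (miR-302d-3p), -0.11 (miR-1825) and 0.049 (miR-373-3p) after scaling. Against the other 5 libraries it was -0.043 (miR-1825), 0.11 (miR-33b*), 0.010 (miR-373-3p), -0.057 (miR-199a-3p), 0.054 (miR-302d-3p) and 0.018 (miR-590-3p). With no filter on low values it was -0.12 (miR-1825) and -0.025 (miR-302d-3p). Among 138 single changes, those of the 23 members named by rule, 19 were past 2-fold, and none turned its sign past the limit under these settings. Of these, 19 were kept with a pseudocount of 0.1 RPKM, 18 when centred, 13 when scaled, 7 against the other 5 libraries and 5 with a pseudocount of 5 RPKM. Newly past 2-fold were 6 with a pseudocount of 0.1 RPKM, 3 when scaled and 2 against the other 5 libraries. The causes of these shifts were not tested.

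Depth limits the low members: Tspan8 rests on 52 reads after cel-miR-67 and Itgb8 on 93 after miR-590-3p. Above all, 1 library per miRNA leaves the spread between cultures unmeasured.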

Other observations

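Matrix receptors outside the integrins and further tetraspanin relatives were listed after the member values had been seen. Gpc1, a heparan sulphate proteoglycan anchored in the membrane, was at 51.0 RPKM after miR-199a-3p, 49.5 RPKM after miR-590-3p, 43.1 RPKM after miR-373-3p, 44.7 RPKM after miR-302d-3p, 55.8 RPKM after miR-33b* and 25.3 RPKM after miR-1825, against 77.3 RPKM after cel-miR-67. It was below cel-miR-67 in all 6 libraries as deposited, and its change after miR-1825 was -1.58. Bcam, a laminin receptor of the immunoglobulin family, was at 71.0 RPKM after miR-199a-3p, 39.3 RPKM after miR-590-3p, 51.0 RPKM after miR-373-3p, 53.8 RPKM after miR-302d-3p, 34.9 RPKM after miR-33b* and 21.0 RPKM after miR-1825, against 51.8 RPKM after cel-miR-67. The miR-1825 library was the lowest for both, and these were the 2 of 10 such receptors past 2-fold lower there, where 1.63% of all genes were. Dag1, whose product dystroglycan is the non-integrin laminin receptor of muscle, was at 77.1 to 93.0 RPKM in the miRNA libraries and 89.1 RPKM after cel-miR-67. Sdc1, a syndecan, was at 12.1 RPKM after miR-199a-3p, 9.20 RPKM after miR-590-3p, 5.37 RPKM after miR-373-3p, 4.91 RPKM after miR-302d-3p, 8.24 RPKM after miR-33b* and 7.33 RPKM after miR-1825, against 7.19 RPKM after cel-miR-67. Of the tetraspanin relatives, Upk1b was at 2.93 to 5.74 RPKM in the miRNA libraries and 2.93 RPKM after cel-miR-67, with changes of 0.00 to 0.78, and Rom1 at 0.908 to 1.77 RPKM and 0.685 RPKM, with changes of 0.18 to 0.72.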
